A study of Mus musculus with 16 samples.

Results

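The response of cultured monocyte and dendritic progenitors (MDPs) to a γ-secretase inhibitor (GSI, Compound E) was described from 8 of the 16 arrays of a mouse bone marrow (BM) series. The arrays were chosen by their labels: 4 came from GSI-treated MDPs and 4 from vehicle-treated (DMSO) MDPs, and each set of 4 held 2 WT and 2 IkL/L arrays. The other 8 arrays held common dendritic progenitors (CDPs) under the same conditions and were used for the variance estimate and for a comparison of stages. In every group, purified CD45.2+ progenitors had been cultured for 24 h beside unfractionated CD45.1+ BM cells, with medium from a Flt3L-producing line, and with GSI at 5 µM or with DMSO. CD45.2+ cells were then sorted and their RNA was amplified from inputs of 0.69 to 20 ng before hybridization to Affymetrix Mouse Gene ST arrays. Mice were 6 to 9 weeks old, with 2 mice per condition. IkL/L mice are homozygous for a hypomorphic Ikzf1 allele, so their cells retain functional Ikaros protein at a reduced level. All groups shared the same supporting cells and cytokine, and the sort after culture was on CD45.2 alone, so the recovered cells were the progeny of MDPs and not cells gated again as MDPs.

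γ-Secretase is a membrane protease complex that cuts many single-pass receptors within the membrane. Its best known substrates are the Notch receptors, whose released intracellular domain joins the DNA-binding protein RBPJ to induce genes such as Hes1, and GSIs are used to block this step. MDPs are BM cells that express CSF1R, KIT and CX3CR1 and give rise to monocytes, macrophages and, through CDPs, dendritic cells (DCs). All values below are log2 signals, and a difference of 1 is a factor of 2. The comparison asks which genes differed between GSI and vehicle at the MDP stage, and whether WT and IkL/L cells differed in the same way.

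The 8 arrays expressed genes of the MDP. The myeloid transcription factor Spi1 lay between 9.79 and 10.27, and the macrophage growth factor receptor Csf1r lay between 9.62 and 10.41. Kit, the stem cell factor receptor, was lower in every replicate 2 array (5.94 to 7.26) than in every replicate 1 array (7.55 to 8.05). Genes of other cells were also present at high signal. The neutrophil granule gene Camp lay between 6.93 and 8.72 in WT arrays and between 11.21 and 12.12 in IkL/L arrays, and the eosinophil granule gene Prg2 lay between 6.62 and 11.63. The list means of B cell genes (14 genes, 4.39 to 4.49) and of T and NK cell genes (15 genes, 4.01 to 4.38) stayed below the array medians of 4.52 to 4.65. Single members could stand higher, such as the B cell gene Cd79b at 6.43 to 7.80. Replicate arrays of an MDP group correlated at r = 0.987 to 0.996 across genes. One library stood apart. The Y-linked gene Eif2s3y read 3.33 in IkL/L MDP GSI replicate 2, against 7.04 in the vehicle array of the same number and 5.89 and 6.07 in the replicate 1 arrays. In WT MDPs both replicate 2 arrays were low (3.27 and 3.52) and both replicate 1 arrays were high (6.63 and 6.87). Counts are therefore also given without IkL/L MDP GSI replicate 2. The X-linked transcript Xist read between 7.80 and 9.29 in the 8 arrays, so arrays with high Eif2s3y also held Xist signal.

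With 2 arrays in a group, no gene passed the limma test of group means. Of 19938 genes, 0 (0%) had an adjusted p under 0.05 in limma for GSI against DMSO averaged over the genotypes, and the lowest adjusted p was 0.313. Without WT MDP GSI replicate 2, 2 genes were called higher and 3 lower. At an unadjusted p under 0.05 there were 1512 genes (7.58%), 814 higher (4.08%) and 698 lower (3.50%) with GSI. With replicate numbers taken as pairs within genotype and progenitor, limma called 21 genes higher and 26 lower (lowest adjusted p = 0.0325). No label states such pairs. Deviations of same-numbered arrays were uncorrelated in IkL/L MDPs (r = -0.02) but correlated in WT MDPs (r = 0.48), WT CDPs (r = 0.59) and IkL/L CDPs (r = 0.66). Whether the numbers mark shared material therefore cannot be told. An exact permutation of treatment labels within genotypes has 36 arrangements and cannot go below p = 0.0556 for a single gene. The differences below are therefore descriptions with their standard errors (SE). Because these are bulk arrays, fewer cells of a type and less RNA per cell cannot be told apart.

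By size alone, 175 genes (0.878%) differed by over 1.5-fold in the averaged difference, and 53 were over 1.5-fold higher (0.266%) and 122 over 1.5-fold lower (0.612%) with GSI. In 45 of the 53 and 83 of the 122, the GSI arrays did not overlap the DMSO arrays in either genotype, against 4.97% and 4.07% of all genes. The genes were chosen for large differences in these same arrays, so a larger share without overlap follows from the choice. In each genotype alone, 33 of the 53 and 59 of the 122 also passed 1.5-fold. Without IkL/L MDP GSI replicate 2, 54 genes were over 1.5-fold higher and 100 over 1.5-fold lower, and these included 46 of the 53 and 78 of the 122. These counts depended on single arrays. There were 115 higher and 188 lower without WT MDP DMSO replicate 2, 220 lower without WT MDP GSI replicate 2, 101 higher without WT MDP GSI replicate 1 and 98 higher without IkL/L MDP DMSO replicate 2, and 21 were higher in both genotypes without IkL/L MDP DMSO replicate 1. The 10 genes with the largest differences in each direction and no overlap in either genotype are described next. The tenth higher gene, Kynu, stood at 1.06 (next, Slc30a4, 1.05), and the tenth lower gene, Snord82, stood at -1.09 (next, Dpp4, -1.06).

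**Figure D1:**
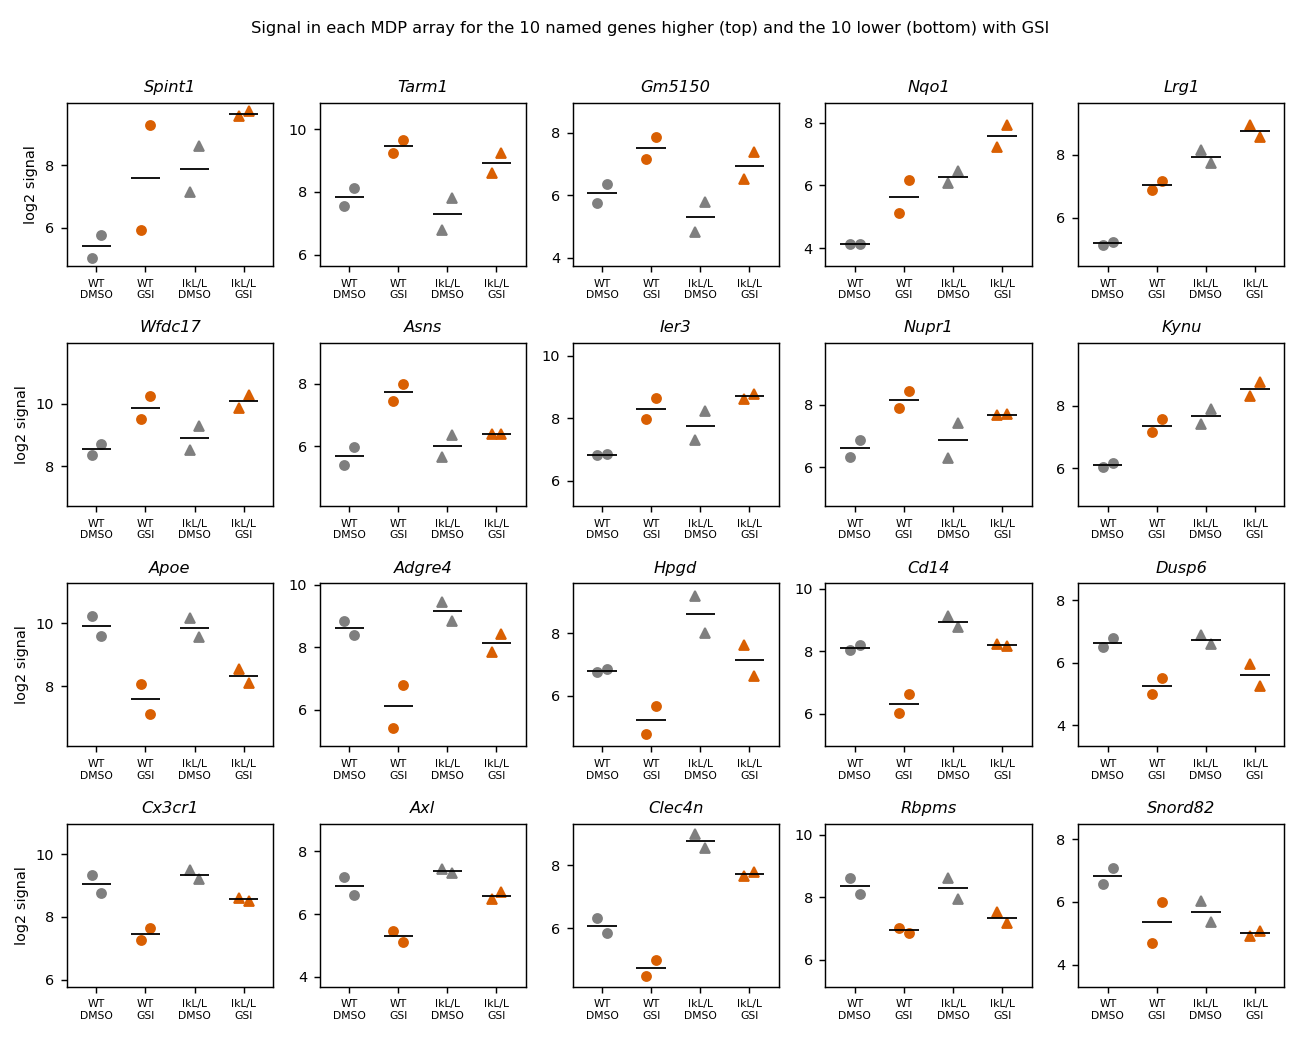
Each panel plots the log2 signal (y axis, all panels span the same range of 5.2) of 1 gene in the 8 MDP arrays, with DMSO in grey, GSI in orange, WT as circles, IkL/L as triangles and a bar at the mean of 2 arrays. In each genotype the GSI points lie above the DMSO points for Spint1 to Kynu and below them for Apoe to Snord82, as the choice of genes requires, and the distance between groups differs from gene to gene.

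Genes of stress and amino acid metabolism were among those higher with GSI. Asns, the enzyme that makes asparagine, read 5.40 and 5.99 in WT DMSO arrays, 7.46 and 7.99 in WT GSI arrays, 5.67 and 6.36 in IkL/L DMSO arrays, and 6.41 and 6.40 in IkL/L GSI arrays. The WT groups were thus far apart while the IkL/L groups were separated only narrowly. Its averaged difference was 1.21 ± 0.29 (SE, adjusted p = 0.414), a factor of 2.31. Nupr1, a small stress-induced chromatin protein, read 6.34 and 6.86 (WT DMSO), 7.89 and 8.42 (WT GSI), 6.28 and 7.42 (IkL/L DMSO), and 7.65 and 7.70 (IkL/L GSI). All 4 GSI arrays stood above all 4 DMSO arrays. Its difference was 1.19 ± 0.29 (SE, adjusted p = 0.414). Ier3, a stress-inducible survival gene, differed by 1.20 ± 0.27 (SE, adjusted p = 0.373).

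The promoters of Asns and Nupr1 are printed because both genes are known targets of ATF4, the transcription factor of the amino acid and unfolded protein responses. The 250 bases before each gene start are given 5′ to 3′ on the gene's strand, from RefSeq on build GRCm38.p6, for chr6:7693210-7693459 and chr7:126625471-126625720, both on the minus strand. Capitals mark the ATF4 element TGATGNAA or its reverse complement, a motif chosen after the values were seen.

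Asns: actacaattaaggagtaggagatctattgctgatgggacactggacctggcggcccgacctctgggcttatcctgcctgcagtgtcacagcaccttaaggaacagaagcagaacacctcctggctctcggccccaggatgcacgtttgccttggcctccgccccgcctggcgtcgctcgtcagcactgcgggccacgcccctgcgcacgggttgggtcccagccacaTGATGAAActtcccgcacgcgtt

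Nupr1: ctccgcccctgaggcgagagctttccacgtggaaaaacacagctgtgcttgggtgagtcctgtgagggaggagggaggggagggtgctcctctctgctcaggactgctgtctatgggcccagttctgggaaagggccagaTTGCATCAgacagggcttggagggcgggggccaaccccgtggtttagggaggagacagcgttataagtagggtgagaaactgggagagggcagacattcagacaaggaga

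The element began 23 bases before the Asns start and 110 bases before the Nupr1 start, and 3.45% of 32841 promoter windows of this length held it. The RBPJ core TGGGAA, found in 21.6% of windows, occurred once in the Nupr1 window and not in the Asns window. The SMAD core GTCTG, found in 42.2% of windows, occurred at 3 positions in the Nupr1 window and at none in the Asns window, with both strands searched for every motif. These matches describe letters only.

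The wider list of unfolded protein and ATF4 response genes was mostly higher in mean with GSI. Of 24 measured members, 21 were higher in mean. An unadjusted p under 0.05 in that direction was found for 12 (4.08% of all genes), and 0 passed the adjusted threshold in limma. The list median was 0.30 (0.36 in WT and 0.24 in IkL/L MDPs), against 0.02 over all genes, of which 57.7% were higher in mean. The transcription factor Atf4 itself read 8.22 and 8.93 (WT DMSO), 9.37 and 9.24 (WT GSI), 8.54 and 9.01 (IkL/L DMSO), and 9.10 and 9.08 (IkL/L GSI). Its GSI arrays lay above its DMSO arrays in both genotypes, narrowly so in IkL/L cells. Averaged differences were 0.52 ± 0.15 (SE) for Atf4, 0.55 ± 0.19 for the chaperone cofactor Sdf2l1, 0.39 ± 0.10 for the ER stress-induced factor Manf and 0.38 ± 0.16 for the ER chaperone Hspa5. Protein disulfide isomerases Pdia4 and Pdia6 were higher in mean by 0.47 and 0.52. Slc7a11, the cystine transporter and also an ATF4 target, stood in the opposite direction (-1.01 ± 0.67). The median kept its sign with each array left out, between 0.23 and 0.39. In CDPs the list median was 0.34.

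**Figure D2:**
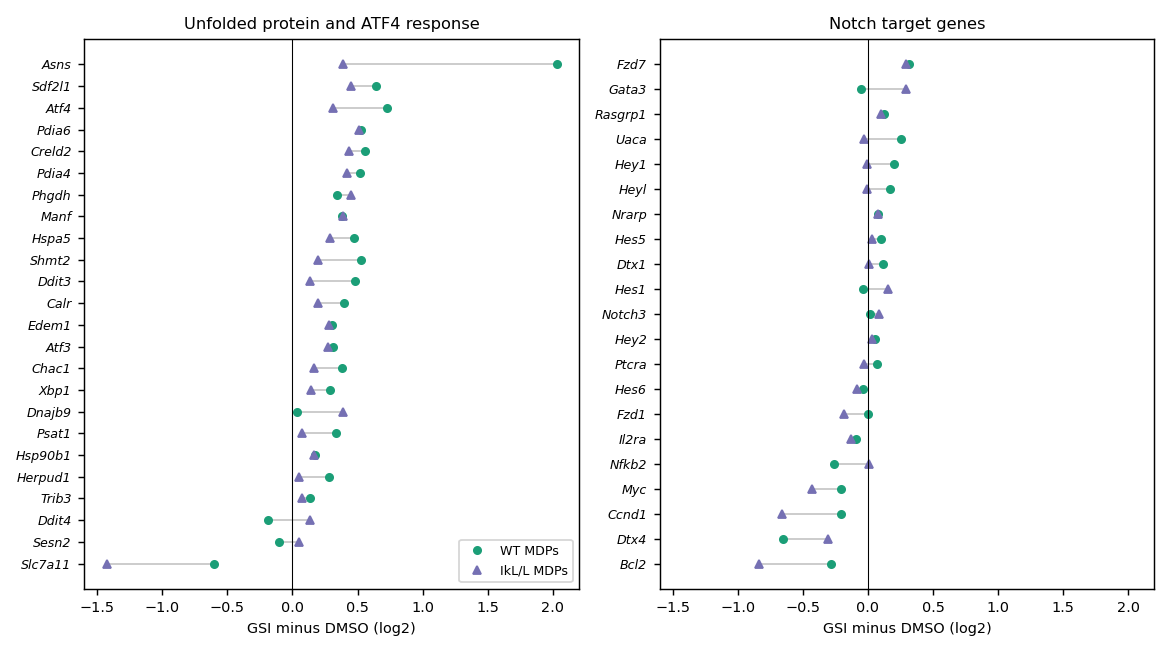
GSI minus DMSO differences (x axis, log2) are plotted in WT MDPs (circles) and IkL/L MDPs (triangles) for each member of 2 gene lists, ordered by the averaged difference. Most unfolded protein and ATF4 response genes lie to the right of 0 in both genotypes, with Asns far out in WT cells (2.03) and Slc7a11 to the left, while most Notch target genes lie near 0.

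Notch target genes had a median close to 0, and many of them had low signal. Hes1, the classical target, read 4.46 and 4.30 (WT DMSO), 4.42 and 4.27 (WT GSI), 4.37 and 4.15 (IkL/L DMSO), and 4.44 and 4.38 (IkL/L GSI). These signals lay below the array medians, and the GSI arrays overlapped the DMSO arrays in WT cells and lay narrowly above them in IkL/L cells. Its difference was 0.06 with a 95% interval of -0.11 to 0.22. The feedback inhibitor Nrarp (0.08, interval -0.06 to 0.21), the ubiquitin ligase Dtx1 (0.06, interval -0.13 to 0.25) and the pre-T cell receptor gene Ptcra (0.02, interval -0.20 to 0.23) were also close to 0. Over 21 measured targets the median was 0.05, with 13 higher and 8 lower in mean. The median was -0.01 without IkL/L MDP DMSO replicate 2 and -0.09 over targets with a mean signal of at least 5. Hes1, Hey1, Hey2, Heyl, Nrarp, Ptcra, Il2ra, Uaca, Gata3, Fzd1 and Rasgrp1 had a mean signal below 5 over all arrays. At such signals a difference near 0 cannot show that a target did not respond. Members lower in mean included the survival gene Bcl2 (-0.56 ± 0.29, SE), the ubiquitin ligase Dtx4 (-0.48 ± 0.17), the cyclin Ccnd1 (-0.43 ± 0.36) and the transcription factor Myc (-0.32 ± 0.38), and the Wnt receptor Fzd7 was higher (0.31 ± 0.13). Of these, Bcl2, Dtx4 and Fzd7 were without overlap in both genotypes. Among the receptors, Notch1 was measured at 7.15 to 7.94 and Notch2 at 8.52 to 8.94, with differences of 0.17 ± 0.30 and -0.18 ± 0.13. The coactivators Maml2 (-0.48) and Maml3 (-0.36) were lower in mean.

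The 6 measured γ-secretase subunits had a median of 0.03. Psenen, the presenilin enhancer, was 0.17 ± 0.06 (SE) higher in mean without overlap, and Aph1b, a scaffold subunit, differed by -0.35 ± 0.14. Aph1b differed by -0.62 in WT MDPs and by -0.09 in IkL/L MDPs, where its arrays overlapped. Of 34 measured substrates, 17 were higher and 17 lower in mean. The substrates lower without overlap included the receptor kinase Axl, the transmembrane chemokine Cxcl16 (-0.86 ± 0.29) and the TGFβ co-receptor Tgfbr3 (-0.46 ± 0.14). Nrg1, a growth factor precursor, was higher in mean by 0.55 ± 0.22.

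Surface receptors of myeloid cells (Adgre4, Cd14, Cx3cr1, Axl and Clec4n) were 5 of the 10 genes lower with GSI. The direction was not shared by all such receptors, since Tarm1 was among the 10 higher genes (1.62). Apoe, the lipid carrier of macrophages, read 10.23 and 9.59 (WT DMSO), 8.05 and 7.11 (WT GSI), 10.17 and 9.55 (IkL/L DMSO), and 8.55 and 8.08 (IkL/L GSI). All 4 GSI arrays lay below all 4 DMSO arrays. The difference was -1.94 ± 0.66 (SE, adjusted p = 0.546), a factor of 3.83. Cx3cr1, the fractalkine receptor that marks MDPs and monocytes, read 9.35 and 8.77 (WT DMSO), 7.25 and 7.63 (WT GSI), 9.50 and 9.20 (IkL/L DMSO), and 8.61 and 8.52 (IkL/L GSI). The 4 GSI arrays again lay below the 4 DMSO arrays. Its difference was -1.20 ± 0.24 (SE, adjusted p = 0.33).

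Axl, a TAM receptor kinase that binds apoptotic cells through GAS6, read 7.17 and 6.60 (WT DMSO), 5.47 and 5.12 (WT GSI), 7.45 and 7.32 (IkL/L DMSO), and 6.48 and 6.69 (IkL/L GSI). The groups did not overlap within a genotype, although the IkL/L GSI arrays reached the level of the lower WT DMSO array. Its difference was -1.20 ± 0.31 (SE, adjusted p = 0.444). Rbpms, an RNA-binding protein gene, read 8.62 and 8.12 (WT DMSO), 7.03 and 6.87 (WT GSI), 8.63 and 7.95 (IkL/L DMSO), and 7.52 and 7.18 (IkL/L GSI). It differed by -1.18 ± 0.18 (SE, adjusted p = 0.313) and had, with Kynu and Wfdc17, the lowest adjusted p of all genes. Adgre4, an adhesion G protein-coupled receptor of monocytes and macrophages (-1.75 ± 0.63), Cd14, the lipopolysaccharide co-receptor (-1.27 ± 0.48), and Clec4n, the fungal lectin receptor dectin-2 (-1.19 ± 0.31), were lower in mean too. So were Hpgd, which degrades prostaglandins (-1.52 ± 0.38), Dusp6, a phosphatase that turns off ERK (-1.26 ± 0.31), and the small nucleolar RNA Snord82 (-1.09 ± 0.27).

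The remaining higher genes had varied functions. Spint1, a membrane-anchored inhibitor of serine proteases, read 5.04 and 5.77 (WT DMSO), 5.93 and 9.27 (WT GSI), 7.15 and 8.61 (IkL/L DMSO), and 9.56 and 9.72 (IkL/L GSI). It had the largest mean difference (1.98 ± 0.64, SE) but the WT GSI arrays were far apart, and WT GSI replicate 1 barely exceeded the DMSO arrays. Wfdc17, a small WAP-domain protein of macrophages, read 8.36 and 8.71 (WT DMSO), 9.49 and 10.23 (WT GSI), 8.50 and 9.27 (IkL/L DMSO), and 9.86 and 10.28 (IkL/L GSI). Its difference was 1.25 ± 0.24 (SE, adjusted p = 0.313). Kynu, kynureninase of tryptophan breakdown, read 6.04 and 6.18 (WT DMSO), 7.15 and 7.56 (WT GSI), 7.43 and 7.91 (IkL/L DMSO), and 8.32 and 8.74 (IkL/L GSI). WT GSI arrays thus stood near the IkL/L DMSO arrays for this gene, with an averaged difference of 1.06 ± 0.17 (SE, adjusted p = 0.313). Nqo1, a quinone reductase of the oxidative stress response, read 4.12 and 4.13 (WT DMSO), 5.11 and 6.16 (WT GSI), 6.07 and 6.46 (IkL/L DMSO), and 7.23 and 7.94 (IkL/L GSI). Its difference was 1.42 ± 0.41 (SE, adjusted p = 0.485). The WT DMSO values lay below the array medians, so the size of its difference in WT cells is uncertain. Tarm1, an activating receptor of myeloid cells, Gm5150 and Lrg1, a secreted leucine-rich glycoprotein, differed by 1.62 ± 0.61, 1.55 ± 0.60 and 1.33 ± 0.39.

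Genes of DC and myeloid progenitors were mostly lower in mean with GSI. Of 28 measured members 23 were lower (42.3% of all genes were), with a median of -0.18. In that direction 4 had an unadjusted p under 0.05 in limma (3.50% of all genes did). Besides Cx3cr1, these were the progenitor sialomucin Cd34 (-0.93 ± 0.24, SE), the DC and monocyte transcription factor Irf8 (-0.77 ± 0.17) and the myeloid factor Cebpa (-0.22 ± 0.08). Irf8 read 8.99 and 9.34 (WT DMSO), 8.14 and 8.57 (WT GSI), 9.17 and 9.06 (IkL/L DMSO), and 8.55 and 8.21 (IkL/L GSI), without overlap of any GSI and DMSO arrays. Kit differed by -0.61 ± 0.47 and Flt3, the receptor of Flt3L, by -0.46 ± 0.32. Kit depended on IkL/L MDP GSI replicate 2, without which its difference was -0.21, and the list median was then -0.05. Spi1 (-0.04 ± 0.10) and Ikzf1, the gene of Ikaros (-0.08 ± 0.10), were close to 0.

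DC genes were described by subset. Over all genes, 57.7% were higher and 42.3% lower in mean, to be set beside the counts of these and the later lists. Plasmacytoid DC (pDC) genes were lower in mean in 19 of 25, with a median of -0.19 that lay between -0.25 and -0.17 in every alternative fit. Siglech, a pDC lectin, read 5.73 and 5.14 (WT DMSO), 4.86 and 4.75 (WT GSI), 6.06 and 6.06 (IkL/L DMSO), and 4.82 and 5.08 (IkL/L GSI), a difference of -0.87 ± 0.21 (SE, adjusted p = 0.414). All 4 GSI arrays lay below the DMSO arrays. Of 36 conventional DC genes, 21 were lower and 15 higher in mean. Dpp4, the peptidase CD26 (-1.06 ± 0.31), and Clec9a, the receptor for dead cells of cDC1 (-1.05 ± 0.36), were lower, whereas the transcription factors Nfil3 (0.58 ± 0.16) and Irf4 (0.85 ± 0.42) and the lysosomal amidase Naaa (0.62 ± 0.15) were higher in mean. Irf4 arrays overlapped in IkL/L cells. Clec9a signals were low, at 4.02 and 4.48 (WT DMSO), 3.48 and 3.40 (WT GSI), 4.50 and 5.25 (IkL/L DMSO), and 3.48 and 3.67 (IkL/L GSI). All but that of IkL/L DMSO replicate 2 lay below the array medians, so the size of its difference is uncertain. MHC class II genes had a median of -0.25 over 9 genes (-0.46 in WT and -0.04 in IkL/L MDPs). That median rested on single arrays, since it was -0.01 without WT MDP GSI replicate 1, -0.10 without IkL/L MDP DMSO replicate 2 and -0.42 without IkL/L MDP DMSO replicate 1.

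Genes of cells other than DC progenitors also differed in mean. The mean of 22 neutrophil granule genes was 7.73 and 7.85 in WT DMSO arrays, 7.63 and 7.68 in WT GSI arrays, 8.88 and 8.92 in IkL/L DMSO arrays, and 8.92 and 8.44 in IkL/L GSI arrays, with 17 of 22 lower in mean. The list median was -0.16, and -0.04 without IkL/L MDP GSI replicate 2. The mean of 15 mast cell, basophil and eosinophil genes was 5.03 and 4.57 (WT DMSO), 4.86 and 4.37 (WT GSI), 5.69 and 5.17 (IkL/L DMSO), and 5.40 and 4.80 (IkL/L GSI), with 10 of 15 lower. Mcpt8, the basophil protease, differed by -1.15 ± 0.49, and by -0.85 without IkL/L MDP GSI replicate 2. For 32 monocyte and macrophage genes, the mean was 7.49 and 7.57 (WT DMSO), 7.25 and 7.42 (WT GSI), 7.86 and 7.94 (IkL/L DMSO), and 7.85 and 8.01 (IkL/L GSI). That list held both Apoe and Cd14 among its 18 members lower in mean, and Vcan (0.95 ± 0.72) and Fcgr1 (0.45 ± 0.45) among its 14 members higher. B cell genes (8 of 14 higher, median 0.03), T and NK cell genes (9 of 15 higher, median 0.02) and erythroid and megakaryocyte genes (7 of 13 higher, median 0.01) were near 0, apart from the platelet chemokine Pf4 (-0.76 ± 0.58). All 4 sex-linked genes measured were lower in mean, with a median of -0.58, and of -0.40 without IkL/L MDP GSI replicate 2. The part of these cells in the results was not tested.

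**Figure D3:**
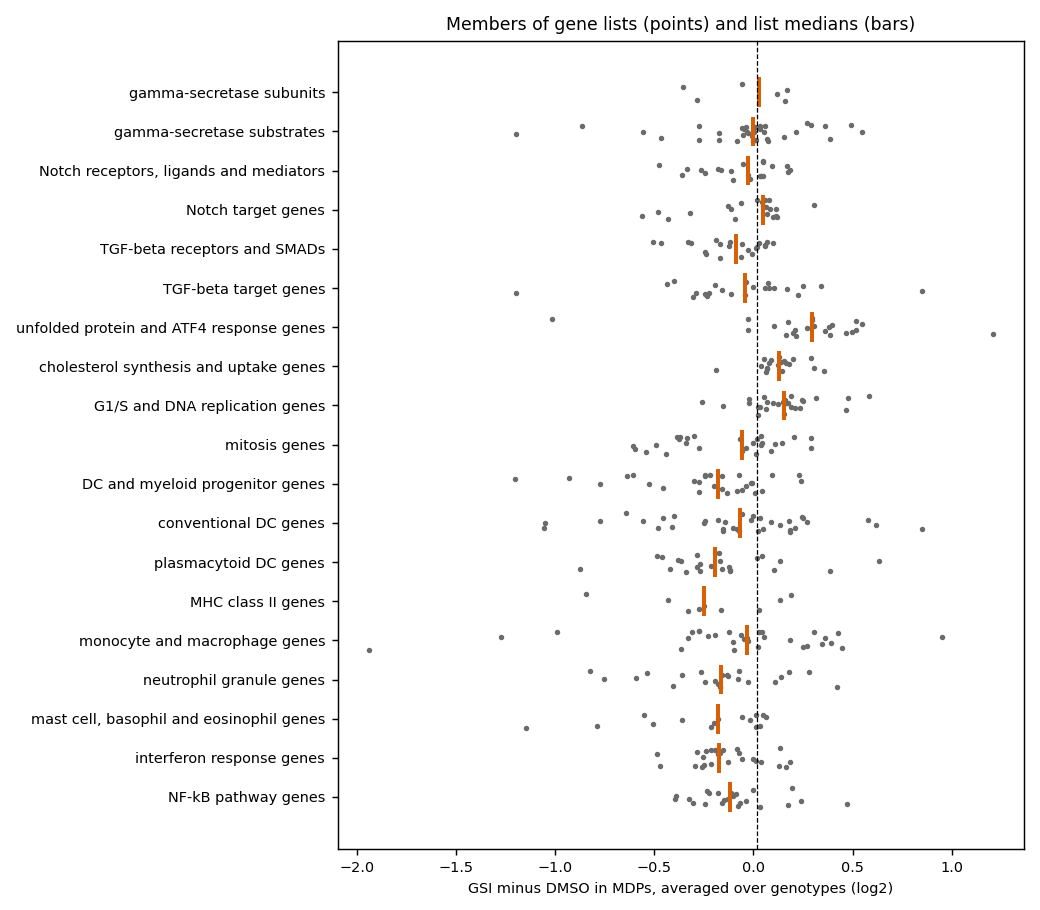
Each point is the GSI minus DMSO difference of 1 list member in MDPs, averaged over genotypes (x axis, log2). Orange bars are list medians and the dashed line is the median of all genes (0.02). The unfolded protein and ATF4 response list has the highest median plotted (0.30), and single members such as Apoe lie far from their list medians.

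Cholesterol, cell cycle and interferon lists had medians between -0.17 and 0.15. Of 19 cholesterol synthesis and uptake genes, 18 were higher in mean (median 0.13, which was 0.04 without WT MDP DMSO replicate 1 and 0.20 without WT MDP DMSO replicate 2), the largest being Nsdhl (0.35 ± 0.14, SE) and Mvk (0.30 ± 0.11), both enzymes of the pathway. Hmgcs1, which makes its precursor, was the exception (-0.19 ± 0.11). Of 27 G1/S and DNA replication genes 23 were higher in mean, with a median of 0.15 that turned to -0.07 without WT MDP GSI replicate 2. The replication licensing gene Cdc6 and the activator E2f2 (0.48 ± 0.18) were its members farthest above 0. Mitosis genes had a median of -0.06 that had no stable sign, ranging from -0.19 without IkL/L MDP DMSO replicate 1 to 0.06 without WT MDP DMSO replicate 2. The list held Nusap1, a spindle protein, at -0.61 ± 0.25 and Ccnb2, a mitotic cyclin, at 0.29 ± 0.13. Interferon response genes were lower in mean in 20 of 26 (median -0.17, and -0.11 without IkL/L MDP DMSO replicate 2). In that direction 0 had an unadjusted p under 0.05 in limma (3.50% of all genes did). The regulator Irf7 stood at -0.49 ± 0.33 and the antiviral gene Ifit3 at -0.47 ± 0.46. Irf7 arrays overlapped in IkL/L cells.

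Metabolic and inducible genes were mixed in direction. Glycolysis and hypoxia genes were higher in mean in 11 of 21 (median 0.11, and -0.01 without WT MDP DMSO replicate 1), with the glucose transporter Slc2a1 at 0.44 ± 0.19 (SE) and the angiogenic factor Vegfa at -0.52 ± 0.15. Fatty acid genes were higher in mean in 15 of 21 (median 0.06, and 0.17 without WT MDP GSI replicate 1), the farthest being the desaturase Scd2 (0.53 ± 0.35). Lysosomal genes (12 of 23 lower, median -0.02) held the lipase Lipa at -0.48 ± 0.36 and the cathepsin Ctsl at 0.79 ± 0.48, the latter without overlap in both genotypes. Among immediate early and heat shock genes (12 of 23 higher, median 0.01), Ier3 stood apart from the antiproliferative gene Btg2 (-0.42 ± 0.12). Of 19 aryl hydrocarbon receptor and detoxification genes 12 were lower in mean (median -0.02), although Nqo1 and the receptor's repressor Ahrr (0.70 ± 0.30) were higher without overlap. Growth factor and cytokine receptors were lower in mean in 15 of 23 (median -0.12), with the shared β chain Csf2rb at 0.45 ± 0.14. Mature migratory DC genes were lower in mean in 15 of 26 (median -0.04), and the chemokine Ccl5 differed by -0.70 ± 0.27. The lysosomal median was 0.06 and the aryl hydrocarbon receptor median 0.04 without WT MDP GSI replicate 1, the immediate early median was -0.04 without WT MDP GSI replicate 2, and the migratory DC median was 0.02 without IkL/L MDP GSI replicate 1.

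TGFβ receptors and SMADs, the pathway examined elsewhere in the study, were lower in mean in 15 of 22 (median -0.09, and -0.03 without WT MDP GSI replicate 1). Besides Tgfbr3, the type I receptor Tgfbr1 (-0.50 ± 0.33, SE) and the endothelial co-receptor Eng (-0.33 ± 0.19) were lower in mean, and Tgfbr2 differed by -0.19 ± 0.09. Of 23 TGFβ target genes 14 were lower and 9 higher in mean. Their median of -0.04 had no stable sign, ranging from -0.11 to 0.04 with single arrays left out. Axl (-1.20) and the SMAD corepressor Skil (-0.43 ± 0.19) were among the lower genes, and Irf4 (0.85) and Tgfbi (0.34) among the higher. NF-κB pathway genes were lower in mean in 19 of 24 (median -0.12), and the coactivator Bcl3 was higher (0.47 ± 0.21). An unadjusted p under 0.05 in limma was found for 0 of the 24 in the lower direction (3.50% of all genes).

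Next, the genotypes were compared. In WT MDPs alone, 0 genes passed in limma (lowest adjusted p = 0.674) and 1350 had an unadjusted p under 0.05, with 114 genes over 1.5-fold higher (0.572%) and 268 lower (1.34%). Without WT MDP GSI replicate 2, 23 genes were called higher and 36 lower in WT MDPs. In IkL/L MDPs alone, 0 passed (lowest adjusted p = 1) and 522 had an unadjusted p under 0.05, with 68 genes over 1.5-fold higher (0.341%) and 117 lower (0.587%). WT replicates were farther apart than IkL/L replicates (mean absolute difference 0.197 and 0.239 for WT DMSO and GSI, 0.173 and 0.132 for IkL/L). Of the 20 named genes, 19 were over 1.5-fold in both genotypes, and the exception was Asns. The difference was larger in WT than in IkL/L MDPs for 8 of the 10 higher and 10 of the 10 lower genes, which were chosen as extremes. Among all genes over 1.5-fold in the averaged difference, it was larger in WT for 35 of 53 higher and 87 of 122 lower. The test of the difference between genotypes called 0 genes in limma, with 325 at an unadjusted p under 0.05 and a lowest adjusted p of 1.

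**Figure D4:**
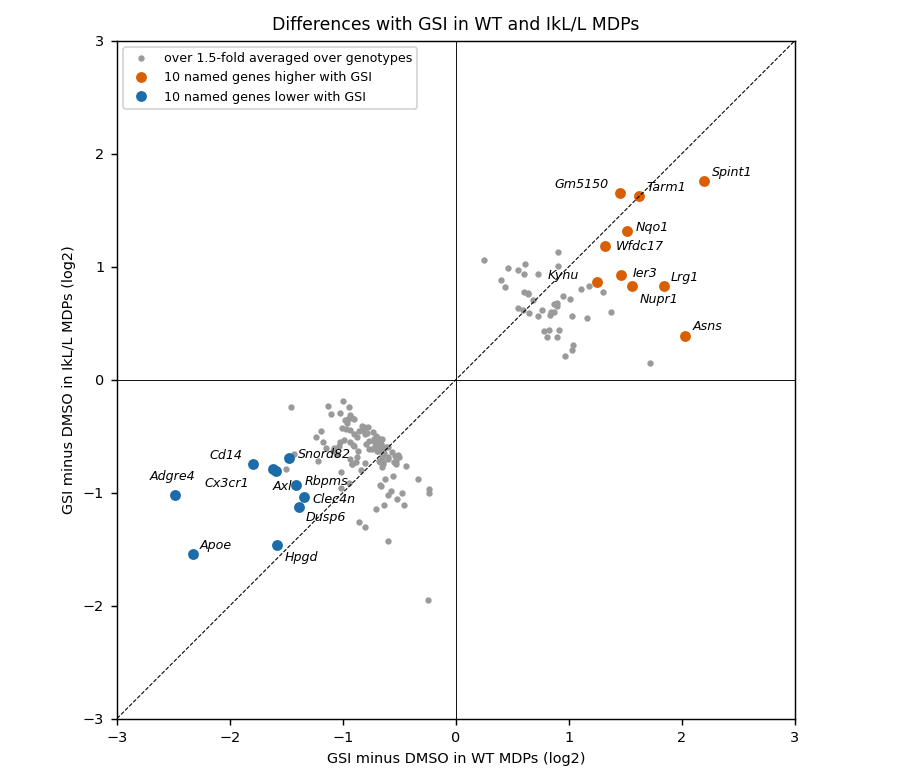
The GSI minus DMSO difference in WT MDPs (x axis, log2) is plotted against that in IkL/L MDPs (y axis, log2) for the 175 genes over 1.5-fold in the averaged difference (0.878% of all genes), with equal values on the dashed line. All 20 named genes lie in the quadrants of equal sign, as their choice requires. Asns (2.03 and 0.39) and Adgre4 (-2.49 and -1.02) are among those away from the line.

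The genes farthest apart between genotypes were few and noisy. Ccl22, a chemokine of mature DCs, read 4.20 and 4.35 (WT DMSO), 4.91 and 4.53 (WT GSI), 6.07 and 6.52 (IkL/L DMSO), and 4.70 and 5.12 (IkL/L GSI). GSI arrays were above the DMSO arrays in WT cells and below them in IkL/L cells, so that the GSI groups of both genotypes stood at a similar level. Ccl22 lay below the array median in both WT DMSO arrays and in WT GSI replicate 2, so its direction in WT cells is uncertain. Its genotype difference was -1.83 ± 0.42 (SE, adjusted p = 1). Asns differed between genotypes by -1.64 ± 0.59. Qpct, which forms pyroglutamate at peptide ends, differed by -0.96 in WT and 0.49 in IkL/L MDPs, a genotype difference of 1.46 ± 0.57. The histone gene H2bc4 (1.61 ± 0.70) shares sequence with other histone genes, so its signal is uncertain. The largest negative difference in IkL/L MDPs alone was that of Eif2s3y (-1.95), which came from IkL/L MDP GSI replicate 2.

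Finally, the MDP differences were set beside those in CDPs, whose arrays are separate. Of the 53 higher and 122 lower MDP genes, 43 and 114 had the same sign in CDPs, against 54% and 46% of all genes with that sign. Over 1.5-fold in CDPs were 20 of the 53 and 40 of the 122, against 0.426% and 0.863% of all genes. All 20 named genes had the same sign. Ier3 (1.34 in CDPs), Asns (1.04), Dusp6 (-1.12), Rbpms (-1.30) and Axl (-1.65) were among those beyond 1 at both stages. Others stood close to 0 in CDPs, namely Nqo1 (0.09), Wfdc17 (0.22) and Snord82 (-0.18).

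**Figure D5:**
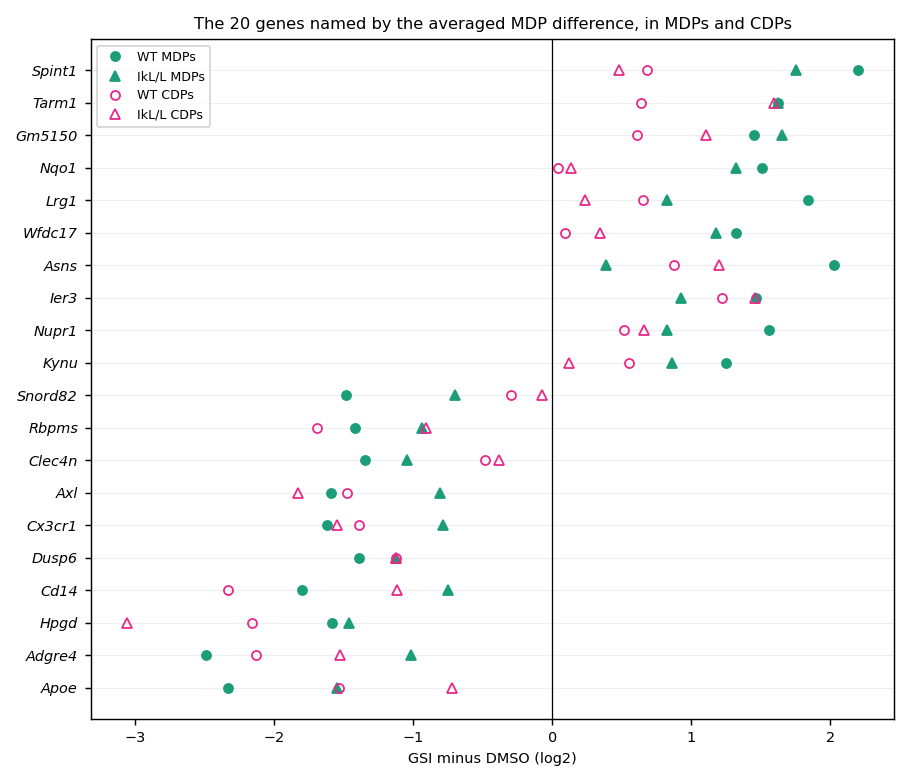
GSI minus DMSO differences (x axis, log2) of the 20 named genes are plotted in WT MDPs (filled circles), IkL/L MDPs (filled triangles), WT CDPs (open circles) and IkL/L CDPs (open triangles). Symbols of a gene lie on the same side of 0 in all 4 populations, and the CDP symbols of Nqo1, Wfdc17 and Snord82 lie near 0.

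The test of the stage difference called 0 genes in limma, with 421 at an unadjusted p under 0.05 and a lowest adjusted p of 1. F11r, the junctional adhesion molecule JAM-A, was 0.28 higher with GSI in MDPs and 0.80 lower in CDPs (stage difference 1.08 ± 0.16, SE). Hpgd was lower in mean at both stages and farther so in CDPs (-2.61, stage difference 1.09 ± 0.53). Casp6, an executioner caspase, and Slc30a4, a zinc transporter, stood higher with GSI at both stages and farther so in CDPs (1.85 and 1.86), with stage differences of -1.08 ± 0.27 and -0.81 ± 0.42. Wfdc17 (1.03 ± 0.33) and Nqo1 (1.33 ± 0.58) differed in the other direction. None of these stage differences passed the adjusted threshold.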

How the data were processed

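The authors hybridized RNA of 16 samples to Affymetrix Mouse Gene ST arrays and processed them, per the submitters' processing notes, with RMA in Affymetrix Expression Console 1.4.1. The deposited values are log2 signals, which ran from 2.56 to 13.46 in MDP arrays, and no source used here names the build behind the array annotation. Of 28188 probe sets, 21789 had 1 gene symbol in the platform annotation, 1621 several and 4778 none. Each of the 19938 symbols was represented by its probe set of highest mean. Group means of all 16 arrays (8 groups) were fitted with limma 3.58.1 in R 4.3.3 (8 residual and 2.35 prior degrees of freedom), with two-sided moderated tests and Benjamini-Hochberg adjustment over all genes at 0.05. The fit was tested on simulated data with residuals drawn independently, so the test does not cover arrays of the same number that vary together. The number of arrays limits the precision, and p-values measure only the spread between samples that the labels do not tie to separate mice.

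The named genes were, for the averaged difference, the 10 largest in each direction without overlap in either genotype, for each other comparison the 3 largest in each direction without overlap, up to 2 members of each of 30 gene lists in each direction, and subunits, receptors, targets and markers of the pathways described. Other named list members (Pdia4, Pdia6, Hspa5, Manf, Atf4, Cebpa, Nfil3) were chosen after their values were seen. Members and lists were chosen with earlier results of these data known. Of 644 listed genes 597 were measured. Alternatives changed the samples fitted, replicate blocks, prior, array weights, low signals, normalization, probe sets, threshold and single arrays. Promoters came from RefSeq (GRCm38.p6).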

Additional observations from a re-analysis of the deposited data

How the results depend on the processing

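The signs of 142 of 161 named genes, and of all 20 genes named by the averaged difference, were the same in all 26 settings. The 20 were chosen without overlap in either genotype, so leaving out 1 array could not reverse their signs. Settings that changed only the test, added a replicate block or left out a CDP array could not change the sign of any gene. Of the 161, 13 (7 of the 20) passed the adjusted threshold in at least 1 setting. Fits of the 8 MDP arrays alone, a robust prior with trend, array weights, a signal minimum of 5, other normalizations, the mean of all probe sets and a test against 1.5-fold each left 0 genes called in the averaged difference. At 2-fold, 14 genes were higher and 16 lower in the averaged difference, and 5 and 5 in both genotypes. With each array left out, calls ranged from 0 to 2 higher and 0 to 3 lower in the averaged difference, 0 to 23 higher and 0 to 36 lower in WT MDPs, 0 to 1 lower for the genotype difference, and 0 to 1 higher and 0 to 4 lower for the stage difference. The highest of these counts came without WT MDP GSI replicate 2, except the 4 of the stage difference, which came without IkL/L CDP GSI replicate 1; without WT MDP GSI replicate 1 there were 2 higher in WT MDPs. Genes over 1.5-fold ranged from 42 to 115 higher and from 100 to 220 lower, and from 21 to 48 and from 43 to 83 in both genotypes. There were 115 higher and 188 lower without WT MDP DMSO replicate 2, 101 higher without WT MDP GSI replicate 1, 98 higher without IkL/L MDP DMSO replicate 2, 220 lower without WT MDP GSI replicate 2, and 21 higher in both genotypes without IkL/L MDP DMSO replicate 1. The cause was not tested.

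Replicate numbers are shared between groups, but no label says that they pair the samples. The Y-linked gene Eif2s3y was high in every WT replicate 1 array (6.63 to 6.90) and low in every WT replicate 2 array (3.06 to 3.52). In IkL/L MDPs the replicate 2 arrays differed, at 7.04 with DMSO and 3.33 with GSI. The deviations of same-numbered GSI and DMSO arrays from their group means correlated at r = 0.48 in WT MDPs, -0.02 in IkL/L MDPs, 0.59 in WT CDPs and 0.66 in IkL/L CDPs. With the replicate number as a block of pairs within genotype and progenitor, 21 genes were called higher and 26 lower in the averaged difference (lowest adjusted p = 0.0325, 2630 genes at an unadjusted p under 0.05). With 1 block term for the number over all groups, 0 were called (lowest adjusted p = 0.0811). No other comparison gained a call under either block.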
